A study of Mus musculus with 4 samples.

Results

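Efferocytosis, the uptake of dying cells by phagocytes, was examined through the transcripts of 9 genes for its receptors, bridging proteins and engulfment machinery. The genes were taken by symbol (Mertk, Axl, Timd4, Gas6, Pros1, Mfge8, Elmo1, Tgm2 and Abca7), and all 9 were present among the 17013 genes listed. The cells were macrophages grown from bone marrow with the growth factor M-CSF. The animals were wild-type, and the study's methods name C57BL/6 males, whose age and number are not given in the sources used here. Every culture lay on a porous insert and received artificial necrotic bone fluid (aNBF), a freeze-thaw extract of bone and marrow, for 24 h. Abdominal fat was digested, freeze-thawed and spun. Its middle layer was the control medium (Con) and its top fat layer the high-fat medium (Fat), so the Con cultures also met dead fat tissue, but little of its lipid. Each medium had 2 libraries. Nothing in the labels says that these came from separate cultures or animals, so the p-values measure only the spread between these libraries, which may be technical.

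A dying cell exposes phosphatidylserine, a lipid normally kept on the inner face of the membrane. Phagocytes read it directly, as Tim-4 does, or through soluble bridging proteins. Gas6 and protein S (Pros1) link it to the receptor tyrosine kinases Tyro3, Axl and MerTK, called TAM receptors, and MFG-E8 links it to integrins. Elmo1 then acts with Dock1 to activate the GTPase Rac, which drives the actin rearrangement of engulfment. MerTK is a widely used marker of mature macrophages, and loss of Mertk is known to delay the clearance of dying cells.

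The libraries held between 33573852 and 40785872 reads on genes. Macrophage markers were abundant in each, and the 10 listed summed to between 27924 and 37002 CPM (read counts scaled to each library's total by the authors). Both Fat libraries had the lower sums, most of which was Lyz2 (log2 fold change -0.41, limma adjusted p = 0.209). The other 9 summed to 8281 and 8112 CPM in Con and 8008 and 7577 CPM in Fat. Of the 10 markers, 1 (Fcgr1) was called lower and 0 were called higher, and their median log2 fold change was -0.17. At an unadjusted limma p-value under 0.05, 5 were lower and 0 higher, against 12.4% and 11.8% of all tested genes. Adgre1, Csf1r, Mrc1 and Cd14 had log2 fold changes between -0.22 and -0.15, and Cd68, Itgam, Ptprc and Spi1 between 0.01 and 0.09. Fibroblast markers summed to between 551 and 696 CPM, neutrophil markers to between 287 and 333 CPM, resident macrophage markers to between 159 and 197 CPM, and endothelial markers to between 28.2 and 37.1 CPM. Lymphocyte markers summed to between 16.2 and 21.8 CPM, dendritic cell markers to at most 2.53 CPM and the 2 of 5 mesothelial markers that were listed (Upk3b and Krt19, without Msln, Wt1 and Lrrn4) to at most 0.78 CPM. Adipocyte markers, most of whose reads were those of Fabp4, Pnpla2 and Lipe, summed to between 339 and 390 CPM. The adipocyte hormone genes Adipoq and Lep were at 0 reads throughout Con. Fat replicates 1 and 2 held 28 and 14 reads of Adipoq, and 30 and 18 reads of Lep. Of the 10 adipocyte markers 5 passed the filter on low values (0.5 CPM or more in at least 2 libraries), Cidec and Plin4 only through the Fat libraries, where they reached at most 1.80 and 1.07 CPM. Among the other 3, Pnpla2 was called higher in Fat (log2 fold change 0.48), and Fabp4 (-0.16) and Lipe (-0.20) were not called. In RNA of whole cultures, fewer cells of a type and less RNA per cell cannot be told apart.

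Levels of different genes are compared only per gene length, as TPM. Mfge8 was by far the most abundant, at 2643 TPM over the 4 libraries, the 36th highest of all 17013 genes. It alone held between 75.6% and 81.6% of the summed TPM of the 9 genes. Tgm2, the gene of the cross-linking enzyme transglutaminase 2, followed at 265.6 TPM. Axl (127.8 TPM) and Mertk (124.1 TPM) came next, and their ranges over the 4 libraries overlapped. Gas6 was at 79.5 TPM and Pros1 at 59.7 TPM, with ranges that met without overlapping (69.3 to 85.0 and 49.5 to 69.1 TPM). Abca7 (21.3 TPM) and Elmo1 (19.5 TPM) overlapped. Timd4 was almost absent, at 0.221 TPM. Tyro3, the remaining TAM receptor, was at 1.24 TPM, so Mertk exceeded it between 88.6-fold and 112.3-fold in each library.

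**Figure D1:**
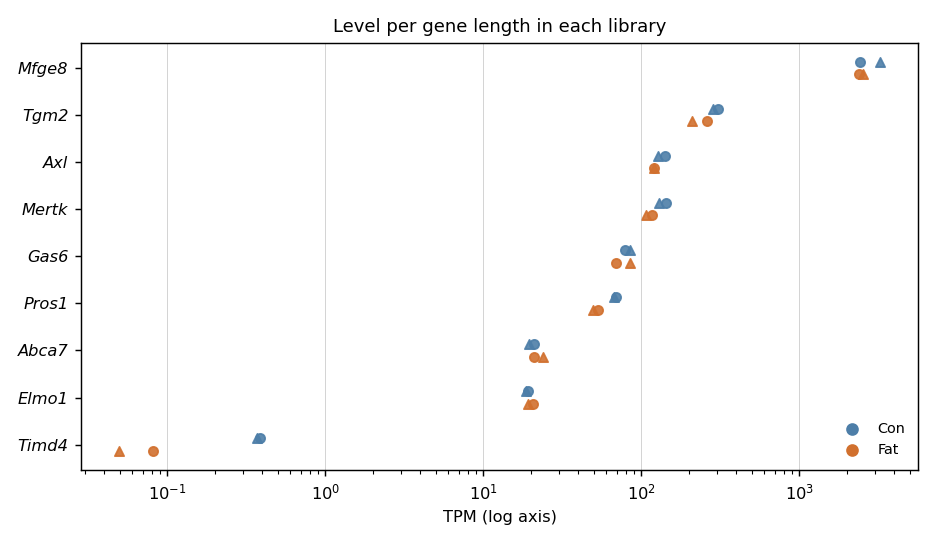
Level of each of the 9 genes as TPM on a log axis, with Con libraries in blue and Fat libraries in orange (circle for replicate 1, triangle for replicate 2). Mfge8 stands at 2373 TPM or more in every library, and Timd4 at 0.386 TPM or less.

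Of these genes, Pros1 and Mertk were called lower in Fat, none was called higher, and Timd4 had too few reads to pass the filter on low values. Fat was compared with Con by limma on log2(CPM + 0.1), two-sided, for 12470 genes that reached 0.5 CPM in 2 or more libraries. A gene was called at a Benjamini-Hochberg adjusted p-value under 0.05. Past the filter were 8 of the genes, and 2 of them were called lower, where 5.0% of all tested genes were, and 0 were called higher, where 3.99% were. At an unadjusted limma p-value under 0.05 the counts were 4 lower, against 12.4% of all tested genes, and 0 higher, against 11.8%. edgeR's quasi-likelihood test called 2 lower and 0 higher, and DESeq2 3 lower and 0 higher. In 4 of the 8, both Fat libraries lay below both Con libraries, which held for 26.2% of all tested genes, and in 0 of the 8 did both lie above, which held for 29.4%. The median log2 fold change of the 8 was -0.21, beside 0.01 over all tested genes. With so few libraries, permuting the labels of 1 gene exactly (two-sided) gives no p-value under 0.333.

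**Figure D2:**
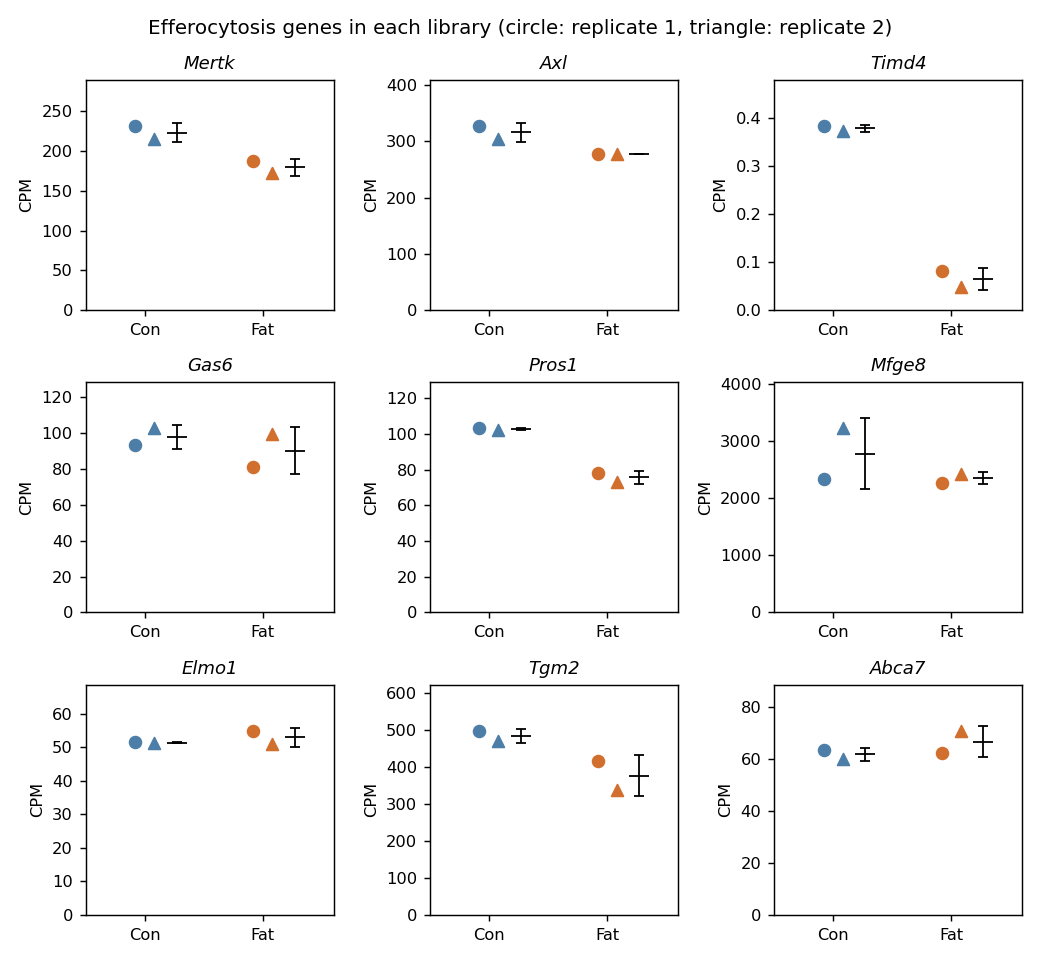
CPM of each gene in each library, on axes that start at 0. Black bars give the mean and SD of the 2 libraries of each medium. The Fat libraries lie below the Con libraries for Mertk, Axl, Timd4, Pros1 and Tgm2, and the groups overlap for Gas6, Mfge8, Elmo1 and Abca7.

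Among the receptors, Mertk fell by 19.6% in Fat. Replicates 1 and 2, in that order here and hereafter, measured 232.0 and 215.1 CPM for Con, against 187.3 and 172.1 CPM for Fat. Both Fat libraries were thus below both Con libraries, and the gap between the groups was wider than that within either. On the log2 scale it fell by 0.31 (standard error 0.07, 95% interval -0.47 to -0.16, limma adjusted p = 0.0289). Its call was lost without Con replicate 1 (log2 fold change -0.26, adjusted p = 0.0846) and without Fat replicate 2 (-0.25, adjusted p = 0.145). It was lost as well with the TPM values (-0.28, adjusted p = 0.0776) and without limma's mean-variance trend (adjusted p = 0.152).

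Axl, the TAM receptor known to be induced by interferons, moved the same way by a smaller amount and was not called. Its values were 327.6 and 303.9 CPM in Con and 277.0 and 278.0 CPM in Fat. The Fat libraries nearly coincided, and both were below the Con libraries. Its log2 fold change was -0.19 (95% interval -0.32 to -0.05, adjusted p = 0.104), and leaving out 1 library at a time gave adjusted p-values between 0.055 and 0.333. Tyro3 was at 2.80 and 2.75 CPM in Con and at 2.71 and 2.63 CPM in Fat, or between 95 and 108 reads, with a log2 fold change of -0.05 (adjusted p = 0.874). In TPM, Axl stood to Mertk as 0.988 to 1 in both Con libraries, and as 1.03 and 1.13 to 1 in the Fat libraries.

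Timd4 encodes Tim-4, a phosphatidylserine receptor typical of resident macrophages of the peritoneum and other tissues. It had 13 and 14 reads in Con and 3 and 2 reads in Fat. The Fat counts were at or under 3 reads, the limit of detection used, and below both Con counts. Pooled over the libraries of a medium and scaled as the authors did, Fat stood to Con as 0.169 (exact 95% interval 0.0508 to 0.445). That interval covers counting error only, as these reads carry no molecular identifiers and need not be separate molecules. Without the filter, limma gave a log2 fold change, which at such counts depends on the pseudocount, of -1.55 (standard error 0.27, adjusted p = 0.0225), where 3.13% of 17013 genes were called lower. edgeR's quasi-likelihood test on the unfiltered reads, added after the low counts were seen, gave -2.50 (adjusted p = 0.0406). Of the resident macrophage markers, Gata6 had 3 reads or fewer in every library, and the scavenger receptor gene Marco was called lower (log2 fold change -1.32, limma adjusted p = 0.00348). The other 3 tested were not called (Folr2 -0.06, Vsig4 0.03 and Cd163 0.58), and the median of the 4 was -0.01. The summed markers were at 181.9 and 196.7 CPM in Con and 165.5 and 158.7 CPM in Fat. Without Marco the sums were 141.5 and 164.8 CPM in Con and 149.7 and 145.7 CPM in Fat, which overlap. Nearly all of these sums was Folr2, at 131.5 and 156.5 CPM in Con and 139.7 and 136.1 CPM in Fat. The part of resident macrophages in the Timd4 difference was not tested.

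Pros1, which encodes protein S, a plasma anticoagulant and ligand of MerTK and Tyro3, fell by 26.4%. It had the smallest p-value of the 8 genes tested. Its values were 103.3 and 102.4 CPM in Con and 78.3 and 73.1 CPM in Fat. The Con libraries were nearly equal, and both Fat libraries were well below them. Its log2 fold change was -0.44 (standard error 0.06, 95% interval -0.58 to -0.31, limma adjusted p = 0.00639), which ranked Pros1 in place 87 by p-value of the genes with lower values in Fat. Leaving out any 1 library gave values from -0.49 to -0.39, each called, with adjusted p-values of at most 0.0233. Such a fit leaves 1 library in a medium, here and for every gene, and assumes that it varies like the other medium's libraries. It was also called with the TPM values (-0.41, adjusted p = 0.0219), but not without limma's mean-variance trend (adjusted p = 0.0861).

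Gas6, the other TAM ligand, did not separate the media. It was at 93.3 and 102.7 CPM in Con and at 81.1 and 99.3 CPM in Fat. Fat replicate 1 was the lowest, and Fat replicate 2 lay between the Con libraries. The log2 fold change was -0.13 (95% interval -0.36 to 0.11, adjusted p = 0.494), and without Fat replicate 1 it was 0.02. The ratio of Gas6 to Pros1, in TPM, was 1.14 and 1.26 in Con and 1.31 and 1.71 in Fat. Fibroblasts are a known source of Gas6. The 7 fibroblast markers summed to 666.5 and 686.0 CPM in Con and 550.6 and 696.1 CPM in Fat. The sum was lowest in the library where Gas6 was lowest. The median log2 fold change of the 6 markers tested was -0.29. At an unadjusted limma p-value under 0.05, 4 were lower and 0 higher, against 12.4% and 11.8% of all tested genes. Of the 6 markers tested, 2 (Dcn and Postn) were called lower, with adjusted p-values of up to 0.112 and 0.0652 when 1 library was left out. Their part in the Gas6 and Pros1 values was not tested.

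Mfge8, whose product bridges phosphatidylserine to integrins containing the αv chain, varied more within Con than between the media. Its values were 2342 and 3231 CPM in Con and 2276 and 2426 CPM in Fat. Con replicate 2 stood apart, 1.38-fold above Con replicate 1, a difference of 0.46 on the log2 scale, where counting reads gives a standard error of 0.01. The Fat libraries lay on both sides of Con replicate 1. The log2 fold change was -0.23 (95% interval -0.57 to 0.12, adjusted p = 0.40). It was 0.005 without Con replicate 2, and -0.46 with an adjusted p-value of 0.022, and so called lower, without Con replicate 1.

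**Figure D3:**
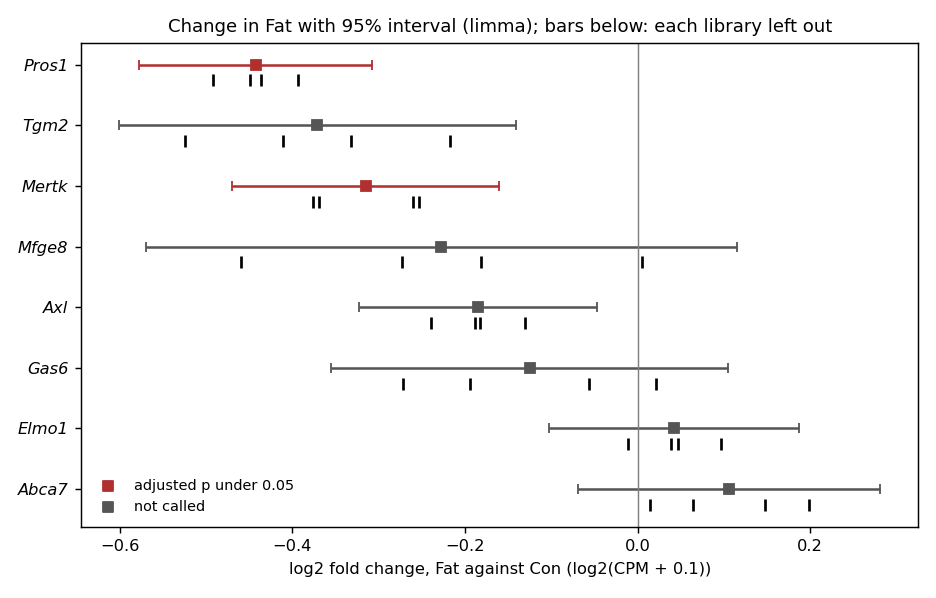
Log2 fold change of Fat against Con for the 8 genes that passed the filter, with limma's 95% interval, in red for genes called and in grey for the others. The short black bars mark the values with 1 library left out, and those of Mfge8 run from -0.46 to 0.005 while those of Pros1 stay between -0.49 and -0.39.

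For the engulfment machinery, Elmo1 differed little between libraries. It was at 51.6 and 51.3 CPM in Con and at 55.0 and 51.1 CPM in Fat. Its highest and its lowest value were both in Fat. Its log2 fold change was 0.04, with a 95% interval of -0.10 to 0.19 (adjusted p = 0.728), and -0.01 without Fat replicate 1. Abca7, an ABC transporter known to promote phagocytosis, was at 63.5 and 60.0 CPM in Con and at 62.3 and 70.8 CPM in Fat. Fat replicate 2 was the highest and Fat replicate 1 lay between the Con libraries. The log2 fold change was 0.11 (95% interval -0.07 to 0.28, adjusted p = 0.445).

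Tgm2, whose product also acts as a partner of integrin β3 at the phagocytic cup, was lower in Fat without passing the test. It was at 497.9 and 471.4 CPM in Con and at 416.7 and 336.9 CPM in Fat. The Fat libraries differed from each other by 1.24-fold, more than the Con libraries, and both lay below Con. The log2 fold change was -0.37 (standard error 0.10, 95% interval -0.60 to -0.14, adjusted p = 0.0614). It passed the test without Fat replicate 1 (-0.52, adjusted p = 0.00556) and without Con replicate 2 (-0.41, adjusted p = 0.0495), and by DESeq2 (adjusted p = 0.00682). Exons of Tgm2, Gas6 and Elmo1 overlap a gene on the opposite strand in GENCODE vM21 (Gm20412 and Rprd1b, Tmem255b, and Gm32036). The library kit marks strand, but whether the counting used it is not given in the sources used here. None of the 9 genes shared an exact stretch of 75 bases with a transcript of another gene.

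The promoters of Mertk, Pros1 and Timd4 are shown because these are the genes that limma called lower, Timd4 without the filter. RefSeq windows of 300 bases (GRCm38.p6, 250 before and 50 from the transcription start) were at hand for 8 of the 9 genes, with 2 windows for Elmo1 and none for Tgm2. Each is given 5′ to 3′ on the gene's strand, with capitals for matches on either strand to TTTCNNTTT (interferon response), TTCNNNGAA (gamma-activated site), AGGTCA (nuclear receptor core), GAGGAAGT (PU.1), TGANTCA (AP-1) or GGGCGG (GC box).
Mertk, chr2:128698665-128698964, + strand: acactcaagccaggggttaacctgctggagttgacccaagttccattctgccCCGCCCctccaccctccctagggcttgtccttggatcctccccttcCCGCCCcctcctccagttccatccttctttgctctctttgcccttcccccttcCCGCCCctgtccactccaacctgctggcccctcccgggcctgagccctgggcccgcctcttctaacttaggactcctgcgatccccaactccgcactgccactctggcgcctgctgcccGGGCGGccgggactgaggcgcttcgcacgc
Pros1, chr16:62854057-62854356, + strand: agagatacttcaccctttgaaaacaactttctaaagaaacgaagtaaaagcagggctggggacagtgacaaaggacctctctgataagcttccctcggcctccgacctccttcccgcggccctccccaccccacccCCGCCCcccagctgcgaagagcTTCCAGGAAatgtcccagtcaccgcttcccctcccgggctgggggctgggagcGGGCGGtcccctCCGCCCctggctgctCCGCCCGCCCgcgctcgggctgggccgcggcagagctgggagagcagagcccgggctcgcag
Timd4, chr11:46810549-46810848, + strand: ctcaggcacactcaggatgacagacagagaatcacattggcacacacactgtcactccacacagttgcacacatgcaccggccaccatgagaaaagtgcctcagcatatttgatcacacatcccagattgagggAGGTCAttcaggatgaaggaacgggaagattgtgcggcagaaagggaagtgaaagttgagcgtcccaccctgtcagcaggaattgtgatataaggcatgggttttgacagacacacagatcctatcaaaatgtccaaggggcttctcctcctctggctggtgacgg
In the Mertk window the capitals are 4 GC boxes. In that of Pros1 they are 5 GC boxes, of which the last pair overlap, and a gamma-activated site that begins 92 bases before the start. In that of Timd4 there is a nuclear receptor core 116 bases before the start and no GC box. Among the 9 windows, 7 held a GC box (35.7% of 32851 RefSeq windows), 2 a gamma-activated site (8.30%), 1 a nuclear receptor core (16.3%), 1 the interferon motif (10.6%), 1 the PU.1 motif (3.20%) and 0 the AP-1 motif (7.81%). These are matches of letters and say nothing of binding.

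Beyond the 9 genes, 77 genes in 7 lists of the same pathway were read from the same fit, and 74 passed the filter. Of these, 6 were called lower and 6 higher, or 8.11% each way, where 5.0% and 3.99% of all tested genes were. Unadjusted, 17.6% were lower and 14.9% higher, where 12.4% and 11.8% of all tested genes were, and the counts for each list stand against the same shares. Among 16 tested receptors for phosphatidylserine and dying cells, 3 were called higher and 0 lower (limma; 6 and 1 at an unadjusted p-value under 0.05, 3 and 0 with edgeR, 4 and 0 with DESeq2), and the median log2 fold change was 0.13. Cd300a, an inhibitory receptor that binds phosphatidylserine, rose from 302.0 and 303.5 to 423.5 and 412.0 CPM (log2 fold change 0.46, adjusted p = 0.00469). Itgav, which encodes integrin αv, rose from 142.1 and 134.8 to 187.2 and 194.2 CPM (0.46, adjusted p = 0.00514). Itgb3, which encodes its partner β3, rose from 21.9 and 22.1 to 27.8 and 28.6 CPM (0.36, adjusted p = 0.0207). The call of Itgb3 was lost without Con replicate 1 (adjusted p = 0.0638) and without Fat replicate 2 (adjusted p = 0.101). Itgb5, which encodes the alternative partner β5, was far more abundant, at 265.1 TPM over the 4 libraries beside 9.53 TPM for Itgb3. Itgb5 was not called (373.2 and 402.3 CPM in Con, 399.9 and 412.8 CPM in Fat, log2 fold change 0.07, adjusted p = 0.551). Of the subunits that receive MFG-E8, αv and β3 were thus called higher and β5 was not.

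Among 6 soluble bridging proteins and opsonins, 3 were called lower and 0 higher (limma; 3 and 1 at an unadjusted p-value under 0.05, 3 and 0 with both edgeR and DESeq2), with a median of -0.26. The 3 were the genes of complement C1q, which coats dying cells. C1qa went from 792.8 and 705.2 to 513.9 and 504.2 CPM (log2 fold change -0.55, adjusted p = 0.00639). C1qb went from 1989 and 1908 to 1383 and 1306 CPM (-0.54, adjusted p = 0.00815). C1qc went from 953.7 and 962.7 to 675.8 and 764.8 CPM (-0.41, adjusted p = 0.0191), and its call was lost without Fat replicate 1 (-0.33, adjusted p = 0.0635) and with the TPM values (-0.38, adjusted p = 0.0528). Pros1 and the C1q genes were therefore called lower, whereas Gas6 and Mfge8 were not called. The rest of this list was not called either, and did not move 1 way. Log2 fold changes were 0.38 for Thbs1 (limma adjusted p = 0.116), 0.32 for Edil3 (adjusted p = 0.302) and -0.10 for Calr (adjusted p = 0.441). Both Fat libraries lay above both Con libraries for Thbs1 and Edil3, and below them for Calr.

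In engulfment signalling, 2 of 12 genes were called higher and 0 lower (limma; 2 and 1 at an unadjusted p-value under 0.05, 2 and 0 with both edgeR and DESeq2), with a median of -0.02. Elmo2, the paralogue of Elmo1, rose from 109.2 and 115.7 to 158.1 and 147.4 CPM (log2 fold change 0.44, adjusted p = 0.00771). In TPM the ratio of Elmo2 to Elmo1 was 2.12 and 2.26 in Con and 2.88 and 2.89 in Fat. Vav3, an activator of Rac, rose from 52.4 and 52.5 to 72.9 and 75.8 CPM (0.50, adjusted p = 0.0044). Of 9 genes that process or signal for the TAM system, 2 were called lower and 0 higher (limma; 3 and 0 at an unadjusted p-value under 0.05, 2 and 0 with both edgeR and DESeq2), with a median of -0.04. These were the cytokine-signalling suppressors Socs1 (-1.02, adjusted p = 0.017) and Socs3 (-0.60, adjusted p = 0.0298), which TAM receptors induce and interferons and interleukins induce as well. Socs1 lost its call without Con replicate 1 (adjusted p = 0.0635). Socs3 lost its call without that library (adjusted p = 0.0782), without Fat replicate 2 (adjusted p = 0.0942) and with the TPM values (adjusted p = 0.0623).

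Of 8 nuclear receptors and Maf factors, 1 was called lower and 0 higher (limma; 1 and 1 at an unadjusted p-value under 0.05, 1 and 0 with both edgeR and DESeq2), with a median of 0.01. It was Pparg, which encodes the lipid sensor PPARγ (log2 fold change -0.68, adjusted p = 0.00639). Among 10 find-me and do-not-eat-me genes, 1 was called higher and 0 lower (limma; 1 and 3 at an unadjusted p-value under 0.05, 1 and 0 with edgeR, 1 and 1 with DESeq2), with a median of -0.09. It was the nucleotide receptor gene P2ry2 (0.38, adjusted p = 0.035), whose call was lost without Con replicate 1 (0.29, adjusted p = 0.122) and without Fat replicate 2 (0.34, adjusted p = 0.144). Of 13 genes of phagosome maturation, 0 were called in either direction (limma; 1 lower, 0 higher unadjusted at 0.05, and 0 with edgeR and with DESeq2), and the median was -0.004.

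**Figure D4:**
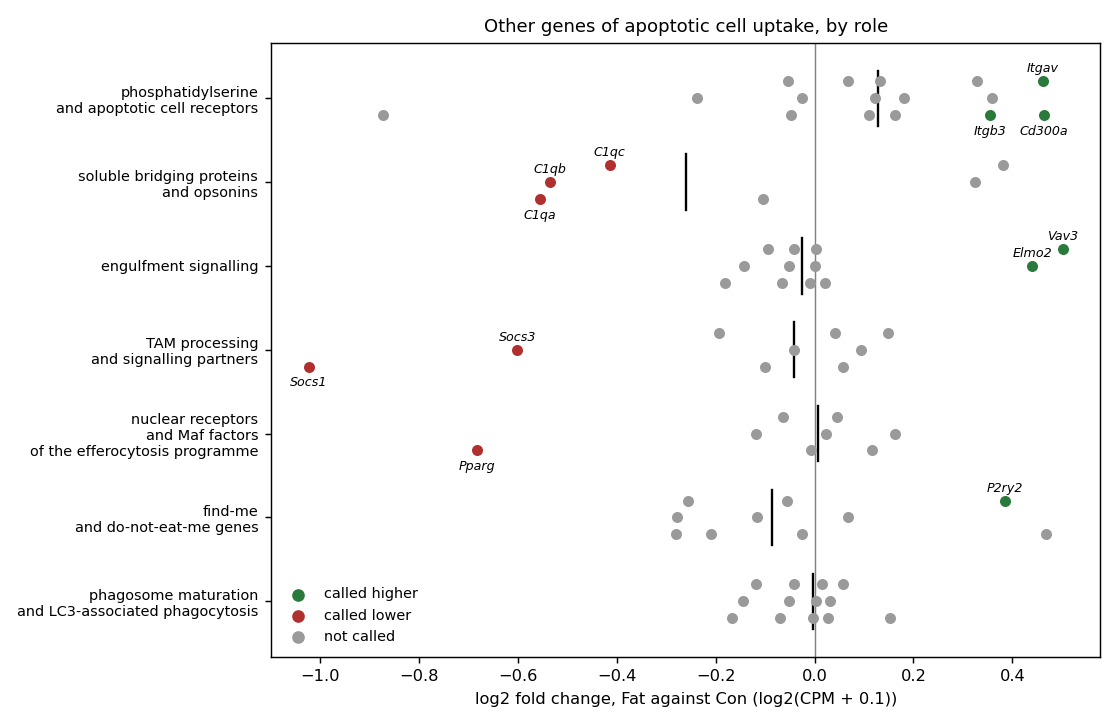
Log2 fold change of Fat against Con for the 74 other pathway genes that passed the filter, one point a gene, by role. Green points were called higher, red points lower, and black bars give each list's median, which runs from -0.26 for bridging proteins and opsonins to 0.13 for receptors.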

How the data were processed

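Bone marrow macrophage RNA was sequenced in 2 Con and 2 Fat libraries, grouped by their titles. The submitters' processing notes list the build GRCm39. The aligner, annotation and counting tool are not given in the sources used here, and the study's methods name edgeR. The authors deposited CPM values (read counts over each library's total, divided by a further factor between 0.990 and 1.01) and TPM values, also scaled for gene length. CPM was the unit of all comparisons and TPM that of levels between genes. Whole reads were recovered from the CPM steps (100% of values within 0.1 of a whole read). Totals ran from 33573852 to 40785872 reads, and a single read was worth between 0.0244 and 0.0295 CPM.

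limma 3.58.1 (R 4.3.3), with a mean-variance trend, was fitted to log2(CPM + 0.1) of 12470 genes, and adjusted p-values are over all of them. edgeR 4.0.16 and DESeq2 1.42.0 were run on the recovered reads as alternatives. The fits were tested on simulated data. Between libraries of the same medium, reads per gene varied 12.2 (Con) and 11.9 (Fat) times as much as counting gives, so no library was a copy of another. Motif searches and figures used Python 3.11.15 with pandas 2.3.3, scipy 1.17.1 and matplotlib 3.10.9. Listed genes were matched by symbol, 3 of them by an older symbol. Sequences come from RefSeq and GENCODE vM21, both on GRCm38, so no positions were carried to the deposited values. The members, lists and tests were chosen with earlier results of these data known. Named genes are the 9 members, Tyro3, and the called genes of each list (at most 4 in each direction). Itgb5, Thbs1, Edil3, Calr and most single marker genes are named outside this rule, after their values were seen.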

Additional observations from a re-analysis of the deposited data

How the results depend on the processing

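The order of the 9 genes by TPM was found in full in each Fat library, and 7 of 9 genes kept their rank in each Con library, where Mertk and Axl changed places. The number of these genes called lower in Fat was 2, and became 1 with the TPM values, 0 without limma's mean-variance trend and 4 at an unadjusted p-value under 0.05. Leaving out 1 library at a time gave from 1 (without Fat replicate 2) to 3. Over all genes, the calls lower in Fat were 624, with 366 for TPM, 12 without the trend and 1541 unadjusted, and from 313 to 612 with a library left out. The calls higher in Fat were 498, with 19 without the trend and 1467 unadjusted, and from 216 to 519 with a library left out. The cause of these shifts was not tested. The direction turned for Gas6 and Elmo1 without Fat replicate 1 and for Mfge8 without Con replicate 2. With 1 library left out the log2 fold change of Gas6 ran from -0.27 to 0.021, that of Elmo1 from -0.011 to 0.096, and that of Mfge8 from -0.46 to 0.00497. Median-ratio scaling, a larger pseudocount (1 CPM), dropping the filter and a filter on a mean of 5 CPM changed no call of the 8 genes or of the 12 named pathway genes, except that the last left Socs1 untested. With the TPM values C1qc and Socs3 lost their calls, and without the trend each of the 12 did.

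Libraries of the same number share only that number in the labels. Their deviations correlated at 0.20 across 12470 genes. With the replicate number as a block, 4 of the 9 genes were called lower (Mertk, Pros1, Axl and Tgm2), and 1242 genes were lower and 1278 higher in all. Among the 9 genes depth limited Timd4 most, at 2 to 14 reads.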
